A study of Mus musculus with 14 samples.

Results

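The genes described here serve protein folding and quality control in the endoplasmic reticulum (ER), together with the sensors and targets of the unfolded protein response. The group held 32 genes of the 17890 in the deposited table, found by matching each row's gene number to a member symbol, and all 32 had enough counts to be tested. By role they were 15 chaperones and folding factors, 8 genes of ER-associated degradation, 3 stress sensors and 6 genes of the PERK-ATF4 branch. Messenger RNA was measured in cultures that the labels call bone marrow-derived macrophages, from male C57BL/6J mice that were 8 weeks old at the start. Mice of the diabetic group received streptozotocin, a toxin of pancreatic beta cells, at 42 to 45 mg/kg on each of 5 days after a 12 h fast, and those with a glucose over 16.9 mmol/L were taken as diabetic. Mice of the other group were controls, without diabetes per the labels. After 6 weeks of hyperglycaemia, marrow progenitors of both groups were grown for 7 days with the macrophage growth factor M-CSF in medium of 5 mmol/L glucose, so all libraries come from cells kept at the same glucose. The table holds 4 libraries whose names carry a D, the initial of diabetic, and 4 whose names carry an M. No label explains the letter M, which could be assigned to the healthy mice only because no other first-phase group was left, so the directions below are those of D against M and depend on that reading. The labels do not tie libraries to single animals, and the p-values then measure the spread between libraries, which may be technical. The 3 diabetic-trained and 3 untrained samples of a second phase were not analysed here.

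Proteins that enter the secretory pathway are folded in the ER by chaperones, lectins and disulfide isomerases, and those that fail to fold are drawn back to the cytosol, marked with ubiquitin and degraded. When unfolded protein accumulates, the membrane sensors ATF6, IRE1 and PERK start the unfolded protein response: cleaved ATF6 and spliced XBP1 raise chaperone and degradation genes, while PERK slows translation and favours synthesis of the transcription factor ATF4. In macrophages this response is known to be engaged by secretion of inflammatory proteins and by saturated fatty acids.

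The promoters of some of these genes carry sequences through which the response is known to act. They are shown so that the members' values can be read beside the elements found. These elements were searched for on both strands, from 250 bases before to 50 bases after the annotated start, in RefSeq promoters of GRCm38.p6, which held an entry for 28 of the 32 members. The ER stress response element (ERSE), bound by ATF6 with NF-Y, was taken as CCAAT, any 9 bases and CCACG. It was found in 8 of the 28 members (28.6%) and in 0.119% of all 32851 promoters. ERSE-II, ATTGG, any 1 base and CCACG, whose first part is CCAAT read from the other strand, was found in 2 members (7.14%) and in 0.0365% of all promoters. The core of the element bound by XBP1, TGACGTG, was found in 1 member, Hspa5 (3.57%), against 2.01% of all promoters. The composite element bound by ATF4 with C/EBP proteins (CARE) was taken as TGATG, any 1 base and AA, and was found in 4 members (14.3%) against 3.97%. Members are counted by gene, and some genes have several promoters. Counted by gene too, the shares over 27025 genes were 0.137% for the ERSE, 0.0444% for ERSE-II, 2.22% for the XBP1 element and 4.51% for the CARE. Several of these genes are those in which the elements were first described, so the shares are a property of the list, and a match of letters is not evidence of binding here.

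The ERSE of members, each printed on the strand where it reads CCAAT to CCACG, with these fixed letters in capitals and 10 bases on either side, were the following (GRCm38.p6).
Hspa5, chr2:34772015-34772053, plus strand: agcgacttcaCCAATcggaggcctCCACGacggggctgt
Calr, chr8:84847065-84847103, plus strand: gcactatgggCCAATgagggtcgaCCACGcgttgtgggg
Pdia6, chr12:17266481-17266519, plus strand: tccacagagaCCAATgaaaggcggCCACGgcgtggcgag
Dnajc3, chr14:118937817-118937855, plus strand: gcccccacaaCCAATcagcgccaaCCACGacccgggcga
Syvn1, chr19:6046522-6046560, plus strand: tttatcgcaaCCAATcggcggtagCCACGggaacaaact

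Canx and Creld2 had 1 ERSE each and Hsp90b1 had 2. Herpud1 had an ERSE-II and, on the other strand, a CARE. Asns and Chac1 had a CARE as well, with the same capital letters marking the fixed bases.
Herpud1 ERSE-II, chr8:94386367-94386397, plus strand: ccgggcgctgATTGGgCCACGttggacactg
Herpud1 CARE, chr8:94386307-94386334, minus strand: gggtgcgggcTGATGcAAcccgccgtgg
Asns CARE, chr6:7693215-7693242, minus strand: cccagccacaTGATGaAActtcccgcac
Chac1 CARE, chr2:119351039-119351066, minus strand: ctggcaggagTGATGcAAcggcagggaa

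**Figure D1:**
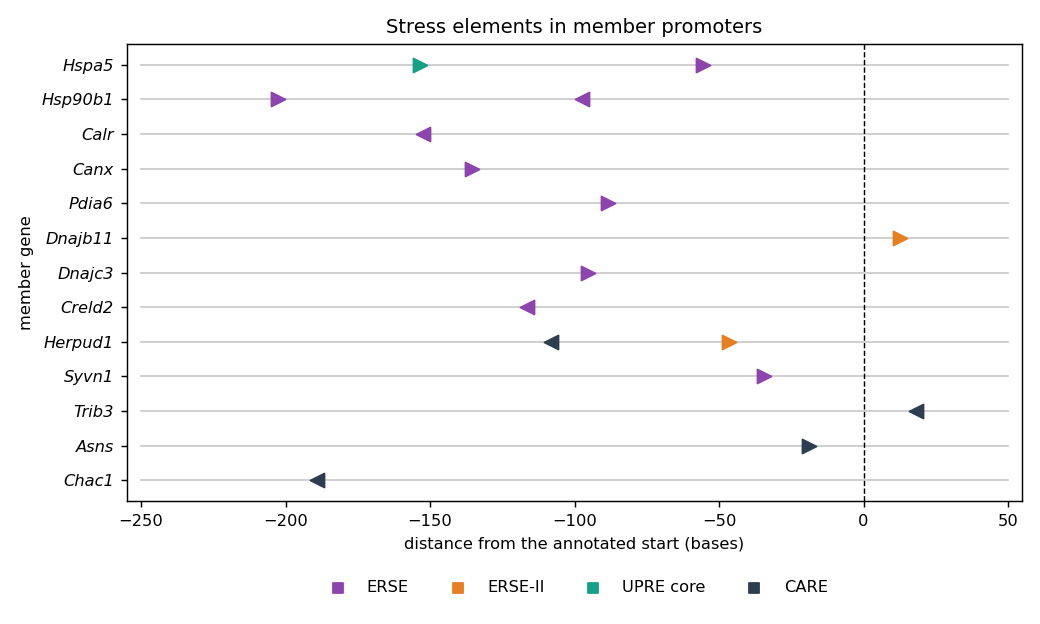
Positions of the ERSE, ERSE-II, UPRE core (the XBP1 element) and CARE in the promoters of the 13 members that held any of them, in bases from the annotated start (dashed line). Triangles point right where the element reads in the direction of the gene and left where it reads against it. All ERSE shown lie before the start, that of Syvn1 closest to it, and the elements of Dnajb11 and Trib3 lie after it.

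The members moved in both directions in the D libraries and by small amounts. At an adjusted p under 0.05 in edgeR's quasi-likelihood test, 8 members were higher in D and 4 were lower, 12 of 32 or 37.5%. Of all 12839 genes tested 34.7% passed, 17.4% higher and 17.3% lower, so the share among the members was close to that of the whole table. The median log2 fold change was 0.076 over the members and -0.033 over all genes tested. Values are in CPM, counts divided by a library size scaled with TMM factors, which assume that most genes do not differ. Syvn1, the ubiquitin ligase of ER-associated degradation, was the single member that differed by more than 2-fold. The groups did not overlap for 10 members, with D above M in 8 and below M in 2, where 34.7% of all genes did not overlap (16.3% above and 18.4% below).

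**Figure D2:**
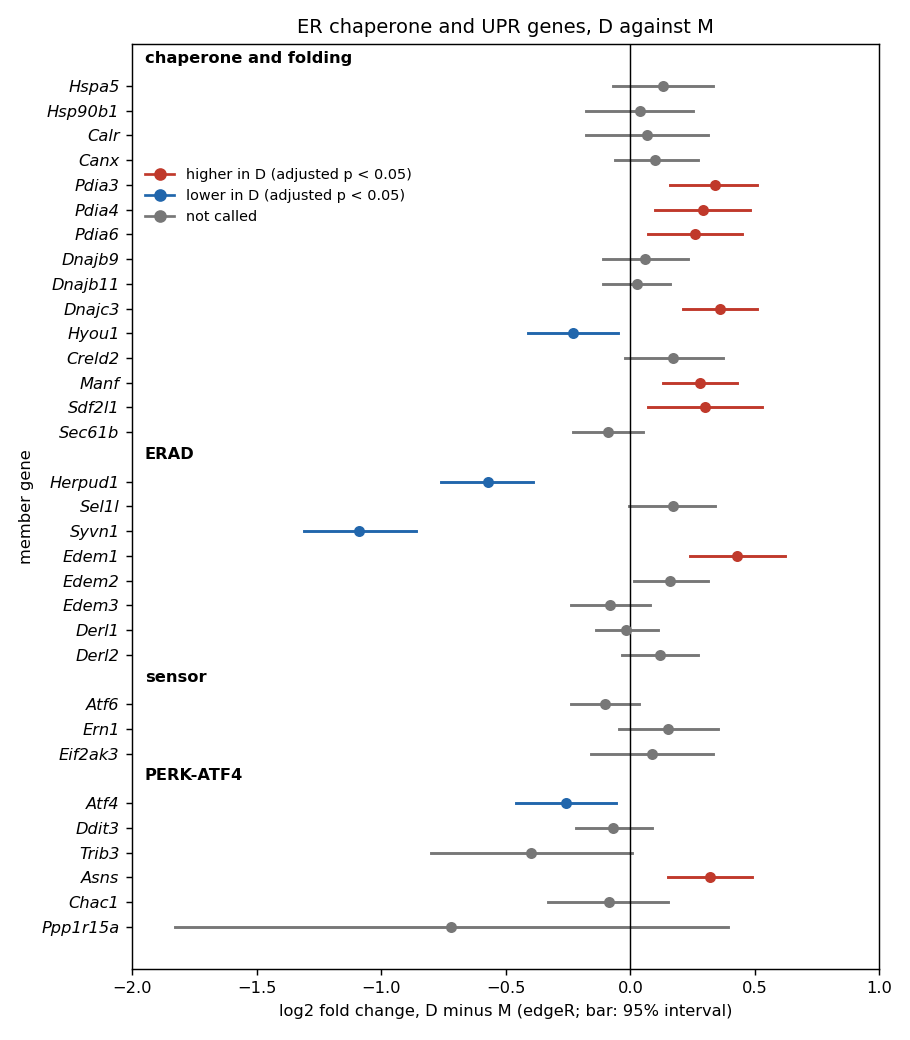
Log2 fold change of each of the 32 members, D minus M, with its 95% interval from the edgeR fit, grouped by role. Red points were higher and blue points lower in D at an adjusted p under 0.05, and grey points did not pass. The intervals of Syvn1 and Herpud1 lie apart from those of the other degradation genes, and that of Ppp1r15a is the widest.

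The 8 libraries held 19048248 to 20028111 counts. The first principal component, with 64.7% of the variance, placed D replicate 1 nearest to the M libraries and D replicate 3 farthest from them. Macrophage genes were present, with Csf1r, the M-CSF receptor, at 86.2 to 116 TPM (a level per transcript length and library) in D and 74.8 to 87.7 TPM in M, but Mertk, an efferocytosis receptor of mature macrophages, was at most 0.650 TPM and the neutrophil gene S100a8 reached 48258 to 75569 TPM. Marker lists of other cells differed between the groups as well, where 17.4% of all genes tested were higher in D and 17.3% lower. Of 17 B lineage markers tested, 13 were lower in D, with a summed level of 109 to 366 CPM against 1641 to 2108 CPM, and of 14 late neutrophil markers 12 were higher, with 45823 to 72421 against 39903 to 41800 CPM. No marker of either list was at 0 in all libraries. In bulk RNA, fewer cells of a type and less RNA per cell cannot be told apart.

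Among the chaperones and folding factors, 6 of 15 were higher in D (Pdia3, Pdia4, Pdia6, Dnajc3, Manf and Sdf2l1) and 1 was lower (Hyou1), where 17.4% of all genes were higher and 17.3% lower. The median log2 fold change was 0.13, and with library totals, TPM or FPKM 1 of the 15 was higher in place of 6. The central chaperone Hspa5 (BiP), which binds exposed hydrophobic stretches of unfolded proteins and holds the sensors inactive, did not pass the test, and neither did its ER partner Hsp90b1 (GRP94) or the lectin chaperones Calr and Canx. Hspa5 stood at 763, 683, 699 and 653 CPM in D replicates 1 to 4 and at 541, 665, 648 and 699 CPM in M replicates 1 to 4. The groups overlapped, with M replicate 1 below all others, and the log2 fold change was 0.13 ± 0.092 (SE; adjusted p = 0.281), with a 95% interval of 0.953 to 1.26 as a fold. Reads of Hspa5 may include some of Rabepk, which overlaps it on the genome at 13.0 CPM, because the strand used in counting is not given in the sources used here.

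Per length, Calr was the most abundant member at a mean of 967 TPM over the 8 libraries, followed by Hspa5 at 496 TPM and Hsp90b1 at 451 TPM. Calreticulin binds calcium and monoglucosylated glycoproteins in the ER lumen. Its level was 1133, 1001, 925 and 989 CPM in D and 788, 946, 1029 and 1105 CPM in M, and the spread within M exceeded the difference between the groups (log2 fold change 0.066 ± 0.11, adjusted p = 0.664). Hsp90b1, which folds Toll-like receptors and integrins, gave 0.037 ± 0.10 (adjusted p = 0.788), and Canx, the membrane-bound relative of calreticulin, 0.10 ± 0.074 (adjusted p = 0.308). As a fold, the 95% interval of Calr ran from 0.886 to 1.24, which takes in the folds of Pdia4 and Pdia6 given next.

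The disulfide isomerases among the members, Pdia3, Pdia4 and Pdia6, were higher in D than in M with TMM factors. None of these calls held with library totals, TPM or FPKM. Pdia3 (ERp57), which forms disulfide bonds in glycoproteins held by calreticulin and calnexin, was at 576, 545, 522 and 485 CPM in D and 384, 415, 439 and 448 CPM in M. All D libraries were above all M libraries, and the fold was 1.26 (95% interval 1.12 to 1.43, adjusted p = 0.00870). Pdia4 (ERp72) was at 154, 140, 130 and 123 CPM in D and 105, 104, 119 and 121 CPM in M, without overlap but with D replicate 4 just above M replicate 4 (1.22-fold, adjusted p = 0.0262). Pdia6 (P5), an isomerase that also acts on the sensors, was at 269, 243, 249 and 223 CPM in D and 182, 194, 220 and 224 CPM in M, where the replicates numbered 4 crossed (1.20-fold, adjusted p = 0.0374). With the replicate number as a block, the adjusted p of Pdia6 was 0.0502.

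Ratios of members within a library do not depend on how libraries are scaled. Pdia3 relative to its partner Calr was 0.509, 0.545, 0.564 and 0.491 in D and 0.487, 0.438, 0.427 and 0.406 in M, and Pdia6 relative to Hsp90b1 was 0.367 ± 0.0221 against 0.316 ± 0.0184 (SD, n = 4), both with D above M. The ratio of Pdia4 to Hsp90b1 overlapped between the groups. These pairs were chosen with the members' values known and are a description, with no test.

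Dnajc3 (p58IPK), a J-domain co-chaperone of BiP that also restrains PERK, had the lowest adjusted p of the chaperones. It was at 95.2, 101, 109 and 95.4 CPM in D and 75.4, 82.0, 75.8 and 79.0 CPM in M, without overlap (log2 fold change 0.36 ± 0.067, adjusted p = 0.00267). Its call held under each of the 21 alternative settings, with log2 fold changes of 0.24 to 0.41. The other J-domain partners of BiP did not pass: Dnajb9 (ERdj4) gave 0.059 ± 0.078 and Dnajb11 (ERdj3) 0.025 ± 0.059. Within a library, Dnajc3 relative to Dnajb11 was 0.772 ± 0.0569 in D and 0.611 ± 0.0245 in M.

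Of the smaller factors, Manf, a secreted protein that binds BiP and steadies its complexes, was at 101, 104, 92.0 and 93.1 CPM in D and 82.3, 75.5, 78.2 and 84.6 CPM in M (1.21-fold, adjusted p = 0.00933). Sdf2l1, which works with Dnajb11 to keep client proteins soluble, was nearly constant at 44.5 to 45.0 CPM in D, while M ranged from 30.9 and 31.8 CPM in replicates 1 and 2 to 39.7 and 43.1 CPM in replicates 3 and 4 (1.23-fold, adjusted p = 0.0464). Creld2, an isomerase-like factor induced by ER stress (log2 fold change 0.17 ± 0.089), and Sec61b, a subunit of the translocation channel (-0.089 ± 0.064), did not pass. Hyou1 (GRP170), the nucleotide exchange factor of BiP, was the member of this role that was lower, at 336, 292, 283 and 267 CPM in D against 368, 334, 327 and 355 CPM in M. D replicate 1 lay within the range of M, and the adjusted p rounds to 0.0500 from below (log2 fold change -0.23 ± 0.083). Without any 1 of the 7 libraries other than D replicate 1 the call ended, and with curated transcripts alone, without the predicted transcripts that the table also lists, the log2 fold change was -0.12 (adjusted p = 0.482).

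The highest and the lowest library were often the same across this role. No such count was made over all genes, so it may not be particular to the chaperones. D replicate 1 was the highest D library in 9 of the 15 chaperones and folding factors and D replicate 4 the lowest in 9. M replicate 1 was the lowest M library in 10 of the 15, and M replicate 4 the highest in 10. The number of higher chaperones was 3 without M replicate 1, M replicate 2 or D replicate 2, 5 without D replicate 3 or D replicate 4, and 6 without any of the other libraries.

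**Figure D3:**
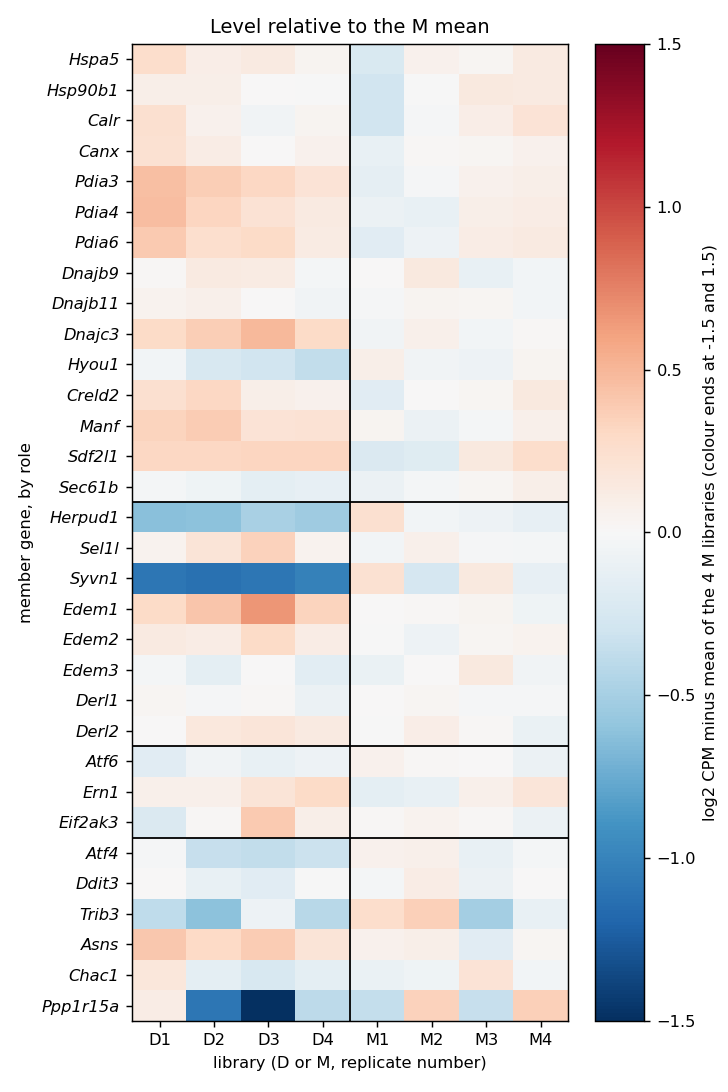
Log2 CPM of each member in each library minus the mean of the 4 M libraries, with rows grouped as chaperones, degradation genes, sensors and the PERK-ATF4 branch from top to bottom. Herpud1 and Syvn1 are blue in all 4 D libraries, the disulfide isomerases are red in them, and Ppp1r15a runs from red in D replicate 1 to the end of the scale in D replicate 3.

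In ER-associated degradation, the ubiquitin ligase Syvn1 and its recruiter Herpud1 fell in the D libraries while the mannosidase-like lectin Edem1 rose, and the other 5 genes did not pass. The 3 that passed are 37.5% of the 8 genes, where 34.7% of all genes tested passed. The median log2 fold change of the 8 genes was 0.051. Syvn1 (HRD1; chr19:6046576-6053718, GRCm38) spans the ER membrane and forms the channel through which misfolded proteins leave. Its level was 58.1, 56.4, 58.0 and 60.8 CPM in D and 144, 103, 136 and 113 CPM in M. The D libraries differed from each other by less than 5 CPM, whereas the M libraries were spread widely and all lay above them. The fall was 2.12-fold (log2 fold change -1.09 ± 0.10, adjusted p = 5.75e-05), and log2 fold changes over the 21 alternatives ran from -1.19 to -1.01. Both curated transcripts of Syvn1 were lower, at 19.9 ± 2.26 against 47.1 ± 9.99 TPM and 10.3 ± 2.40 against 21.7 ± 1.58 TPM (SD, n = 4). The mitochondrial ribosome gene Mrpl49, at 34.9 CPM, overlaps Syvn1 on the genome.

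Herpud1, a membrane protein that gathers the degradation complex around HRD1, was at 91.5, 92.6, 101 and 97.9 CPM in D and 167, 138, 134 and 130 CPM in M. The groups were apart, with a fall of 1.49-fold (log2 fold change -0.57 ± 0.086, adjusted p = 0.000830), and no alternative ended the call. Sel1l, the adaptor that binds and stabilises HRD1, was at 126, 139, 154 and 126 CPM in D and 118, 128, 120 and 119 CPM in M and did not pass (0.17 ± 0.077, adjusted p = 0.118). The mRNAs of the ligase and its adaptor stood in different proportions, which says nothing of their proteins. Syvn1 relative to Sel1l was 0.462, 0.406, 0.378 and 0.481 in D and 1.22, 0.802, 1.13 and 0.948 in M. Herpud1 relative to Sel1l was 0.706 ± 0.0554 against 1.18 ± 0.166. These pairs too were chosen with the members' values known.

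**Figure D4:**
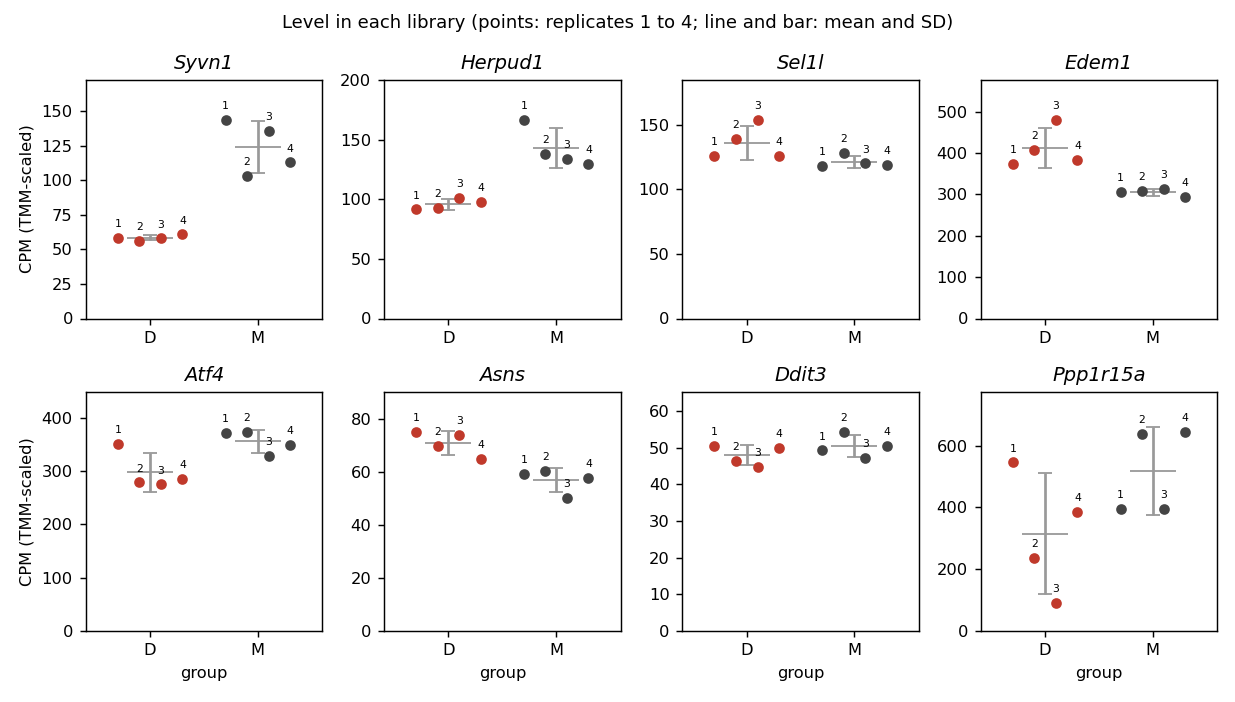
CPM of 4 degradation genes (top row) and 4 genes of the PERK-ATF4 branch (bottom row) in each library, with the replicate number above each point and grey lines for the mean and SD of the 4 libraries. Syvn1 and Herpud1 are lower in every D library than in any M library, Edem1 and Asns are higher, and Sel1l, Atf4, Ddit3 and Ppp1r15a overlap.

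Edem1, which takes mannose-trimmed glycoproteins out of the folding cycle, was at 373, 408, 481 and 384 CPM in D and 307, 308, 313 and 293 CPM in M, without overlap and highest in D replicate 3 (1.35-fold, adjusted p = 0.00375). The difference lay mainly in a predicted transcript that held 54.3% of its counts, at 79.2 ± 8.03 TPM in D and 55.4 ± 5.85 TPM in M. The curated transcript was at 54.1 ± 4.64 and 49.5 ± 3.37 TPM, and with curated transcripts alone Edem1 no longer passed (log2 fold change 0.22, adjusted p = 0.138). Edem2, which starts the trimming of mannose, was at 61.3, 60.5, 68.5 and 60.4 CPM in D and 55.8, 52.9, 57.1 and 58.2 CPM in M. These groups did not overlap, but the adjusted p was 0.0799. Edem3, a further mannosidase of the family, gave -0.081 ± 0.073, and the derlins, which help form the exit path, gave -0.016 ± 0.058 (Derl1) and 0.12 ± 0.068 (Derl2). Edem1 relative to Edem3 within a library was 6.03 ± 0.590 in D and 4.24 ± 0.262 in M.

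Markers of several other cell types were lower in D beside Syvn1 and Herpud1, and markers of others were higher. Of all genes tested, 17.4% were higher and 17.3% lower. Plasma cells, the antibody-secreting end of the B lineage, are rich in ER, and of 10 plasma cell markers tested 6 were lower and 1, Jchain, was higher, with a summed level of 116 to 226 CPM in D and 389 to 472 CPM in M. Jchain, which joins antibody units, was at 24.3, 59.2, 144 and 124 CPM in D and 2.35, 3.80, 3.31 and 2.81 CPM in M (28.6-fold, adjusted p = 0.000852), so it made up a large part of the sum in D. Mzb1, an ER protein of B and plasma cells, was at 7.45, 7.66, 5.79 and 7.61 CPM in D and 22.3, 18.0, 22.7 and 21.6 CPM in M (log2 fold change -1.57, adjusted p = 2.04e-05). The B lineage list, described above, was lower as well. Cd79a, which signals for the B-cell receptor, was at 36.1, 36.4, 16.8 and 51.9 CPM in D and 304, 222, 280 and 230 CPM in M. Library orders were compared after the values were seen. Cd79a and Cd79b ranked the M libraries in the same order as Syvn1. The B lineage marker Cd22 and the plasma cell markers Mzb1, Irf4 and Sdc1 differed from it only in placing M replicate 3 above M replicate 1. These libraries lay close, at 61.3 and 60.9 CPM for Cd22 and 22.7 and 22.3 CPM for Mzb1. The B lineage marker Ms4a1 ranked the M libraries otherwise. In D, Syvn1 was at 56.4 to 60.8 CPM, too narrow a range for its order of the D libraries to be compared. Herpud1 ranked the M libraries in another order than Syvn1. Of the other lists, 6 of 13 dendritic cell markers were lower, with a summed level of 326 to 614 against 689 to 813 CPM, as were 6 of 14 erythroid and megakaryocyte markers (1458 to 7026 against 4907 to 8307 CPM) and 6 of 7 stromal markers (69.1 to 86.4 against 97.0 to 135 CPM). Higher in D were 12 of 22 macrophage markers, with 1 lower, and 8 of 9 basophil and mast cell markers. The same held for 6 of 9 eosinophil markers, 7 of 12 T and NK cell markers and 6 of 12 cell cycle genes. The part of any of these cells in the fall of Syvn1 and Herpud1, or in the rise of other members, was not tested.

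None of the 3 sensors passed the test, 0 at an unadjusted p under 0.05 in edgeR and 0 in DESeq2's test. Of all genes tested in edgeR, 34.7% passed. Atf6, the sensor that is cut in the Golgi to release a transcription factor, was at 76.9, 83.7, 80.3 and 82.0 CPM in D and 90.4, 87.9, 86.5 and 81.4 CPM in M (log2 fold change -0.10 ± 0.061, adjusted p = 0.221). Ern1 (IRE1), the kinase and nuclease that splices Xbp1, gave 0.15 ± 0.090 (adjusted p = 0.204). Eif2ak3 (PERK) was at 84.8, 99.4, 129 and 104 CPM in D and 99.7, 102, 99.4 and 92.1 CPM in M (0.086 ± 0.11, adjusted p = 0.571). Its spread was wider in D, with a coefficient of variation of 17.7% against 4.50% in M, and D replicate 1 was the lowest D library for all 3 sensors. Xbp1, no member but the target of IRE1, was at 158 ± 12.8 CPM in D and 140 ± 6.86 CPM in M and did not pass (0.18 ± 0.074, adjusted p = 0.0870).

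The share of spliced Xbp1 is a direct readout of IRE1, which removes a short intron from the mRNA and so shifts the reading frame to the active factor. The table lists both forms, and in it the shorter one had an effective length 25.5 to 26.6 bases below that of the longer. The shorter form made up 12.9%, 12.5%, 11.2% and 24.2% of Xbp1 TPM in D replicates 1 to 4 and 13.7%, 0%, 11.8% and 19.9% in M. It was listed at 0 in M replicate 2, where the longer form was at 115 TPM, and an estimate of exactly 0 can be a failed division of reads between forms that differ by so few bases. The difference of the means was 3.84 percentage points (exact two-sided permutation test, p = 0.514, smallest possible p = 0.0286). Without M replicate 2 it was 0.0469 points and without D replicate 4 it was 0.838 points.

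In the PERK-ATF4 branch, Asns rose and Atf4 mRNA fell, and the other 4 genes did not pass, with a median log2 fold change of -0.17. The share that passed was 33.3%, where 34.7% of all genes tested passed. ATF4 itself is controlled mainly by translation, so its mRNA is no measure of its protein. Atf4 was at 352, 279, 275 and 285 CPM in D and 372, 374, 329 and 349 CPM in M. D replicate 1 lay within the range of M and the other D libraries below it (log2 fold change -0.26 ± 0.091, adjusted p = 0.0491), and the call ended without any 1 of the 7 libraries other than D replicate 1. The fall lay in the more abundant of its curated transcripts, at 258 ± 43.3 TPM in D and 356 ± 21.9 TPM in M. The other was at 104 ± 13.0 and 108 ± 2.92 TPM.

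Asns, asparagine synthetase and a classical ATF4 target, was at 75.3, 69.9, 74.0 and 65.1 CPM in D and 59.3, 60.5, 50.4 and 58.0 CPM in M. The D libraries were all above the M libraries (1.25-fold, 95% interval 1.11 to 1.40, adjusted p = 0.0100). Asns relative to Atf4 was 0.240 ± 0.0243 in D and 0.160 ± 0.00536 in M. Of the genes that act when stress persists, Ddit3 (CHOP), a factor that promotes cell death, was at 44.8 to 50.5 CPM in D and 47.3 to 54.4 CPM in M, with a 95% interval of 0.856 to 1.06 as a fold (adjusted p = 0.463). Mars1 and Mbd6, at 99.8 and 149 CPM, overlap Ddit3 on the genome. Chac1, which degrades glutathione, gave -0.087 ± 0.11 (adjusted p = 0.555), and its promoter held the same element as that of Asns. Trib3, a pseudokinase that damps ATF4, was at 12.1, 10.3, 14.9 and 11.8 CPM in D and 18.9, 20.1, 11.1 and 14.6 CPM in M, with M replicates 3 and 4 within the range of D (-0.40 ± 0.18, adjusted p = 0.113).

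Ppp1r15a (GADD34), the phosphatase subunit that ends the translational block, varied more between libraries than any other member. It was at 546, 237, 89.1 and 385 CPM in D and 394, 639, 396 and 645 CPM in M. Its coefficient of variation was 62.4% in D and 27.5% in M, and the log2 fold change of -0.72 ± 0.48 did not pass (adjusted p = 0.277). The inducible cytosolic heat shock genes Hspa1a and Hspa1b, which were named after their values were seen, ranked the libraries in the same order as Ppp1r15a within each group. In D this was also the order of the libraries on the first principal component, with 64.7% of the variance, so it is not particular to these genes. In M the order on that component was another. Hspa1a was at 77.3, 31.6, 12.4 and 48.8 CPM in D and 71.4, 129, 96.0 and 179 CPM in M (log2 fold change -1.48, adjusted p = 0.0542).

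By promoter element, the members' calls are a description, since the groups are small and 34.7% of all genes passed, 17.4% higher and 17.3% lower. Of the 8 with an ERSE, 2 were higher (Pdia6 and Dnajc3), 1 was lower (Syvn1) and 5 did not pass. Of the 4 with a CARE, Asns was higher, Herpud1 was lower, and Trib3 and Chac1 did not pass. Of the 15 members with an entry and none of the elements, 4 were higher, 1 was lower and 10 did not pass. Over the whole table, 17 tested genes had an ERSE, members included, of which 3 were higher and 2 lower, with a median log2 fold change of 0.066.

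Other genes of the same pathways passed at shares near or below the 34.7% of all genes (17.4% higher and 17.3% lower). Of 37 other ER folding genes tested, 9 were higher and 3 lower (median log2 fold change -0.01), among them the thioredoxin-domain protein Txndc11 (-0.76 ± 0.077, adjusted p = 9.72e-05) and the oxidase Ero1b (-0.41 ± 0.063), which fell, and Erp44, which returns unfinished proteins to the ER (0.31 ± 0.055), which rose. The related oxidase Ero1a, which is not among the 3 genes of lowest p, went the other way from Ero1b. It was at 239 ± 46.5 CPM in D and 158 ± 9.83 CPM in M (0.60 ± 0.12, adjusted p = 0.00399). Of 31 other degradation genes, 9 were higher and 0 lower (edgeR; 1 lower at an unadjusted p under 0.05 and 0 in DESeq2's test), including Svip, an inhibitor of the pathway (0.61 ± 0.10), the ligase Marchf6 (0.39 ± 0.074) and the deglycosylase Ngly1 (0.53 ± 0.11). Of 28 genes of translocation and glycosylation 6 were higher and 5 lower, with Sec11c of the signal peptidase at -0.37 ± 0.064 and the translocon-associated subunits Ssr3 and Ssr1 at 0.36 ± 0.072 and 0.30 ± 0.068. Under library totals the split was 7 higher and 7 lower for the folding genes, 5 and 4 for the degradation genes and 1 and 8 for translocation and glycosylation, and Ssr1 no longer passed.

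Of 43 other ATF4 targets, 7 passed, with 2 higher and 5 lower, where 34.7% of all genes passed, and their median log2 fold change was -0.14. The glutamine carrier Slc1a5 fell from 336 ± 35.4 CPM in M to 176 ± 36.3 CPM in D (-0.93, adjusted p = 0.000851), and the small neutral amino acid carrier Slc1a4 fell too (-0.57, adjusted p = 0.0263), whereas the carrier Slc38a2 rose (0.31, adjusted p = 0.0245). Among 19 other genes of the sensor pathways 4 were higher and 3 lower. Eif2ak4 (GCN2), the kinase that reaches ATF4 from amino acid shortage, fell (-0.49 ± 0.082, adjusted p = 0.00155), and Map3k5 (ASK1), a stress kinase that acts after IRE1, rose (0.51 ± 0.12, adjusted p = 0.00685). Of 18 cytosolic heat shock genes, Bag3 rose (0.28 ± 0.10) and Hsp90ab1 fell (-0.29 ± 0.10), and the others did not pass. Slc38a2 and Bag3 did not pass under library totals, where 0 of the 43 ATF4 targets were higher and 10 lower. Of the 18 cytosolic heat shock genes, 0 were higher and 4 lower under library totals.

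How the libraries were scaled set the balance of calls among the chaperones. The TMM factors were 0.9127 to 1.005 in D and 1.028 to 1.047 in M. Scaled by library totals alone, log2 fold changes shifted by a median of -0.10 over all genes, 31.3% of calls were higher in place of 50.1%, and the members split as 2 higher and 6 lower in place of 8 and 4. There 11.9% of all genes were higher and 26.1% lower. On the authors' TPM the members split as 3 higher and 5 lower, where 12.5% of all genes were higher and 25.2% lower. Under library totals the 6 higher chaperones became 1, Dnajc3, and the median of the 15 was 0.028. Relative to the median of all genes it was 0.17 higher both with TMM factors and with library totals. A change of library scaling shifts all genes by nearly the same amount, so that distance was fixed in advance. Syvn1, Herpud1, Dnajc3 and Edem1 passed under each of the 4 scalings drawn, and Hyou1 and Atf4 passed with TMM factors, library totals and TPM but not with DESeq2's size factors.

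**Figure D5:**
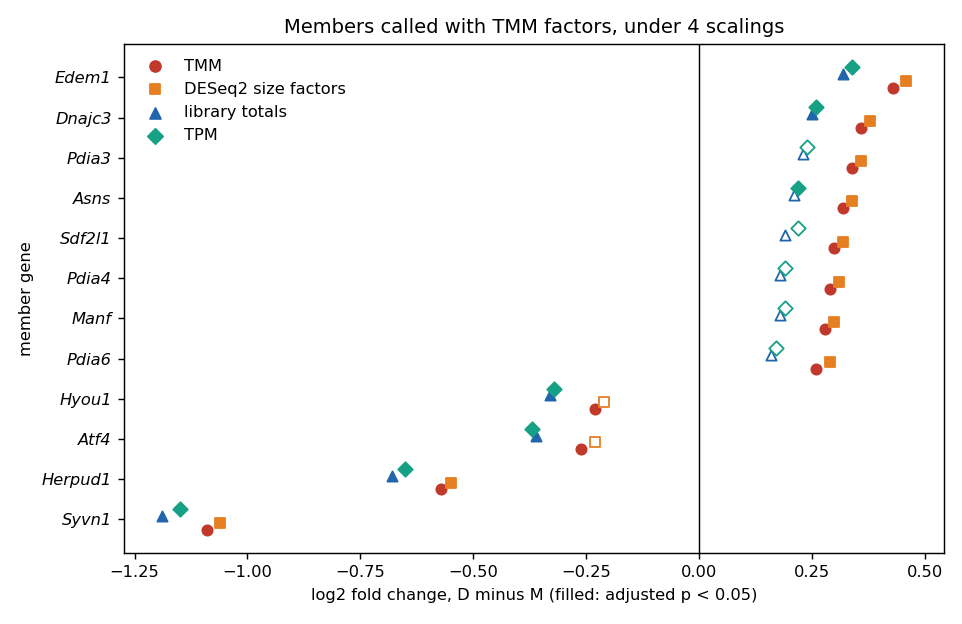
Log2 fold change, D minus M, of the 12 members that passed with TMM factors, under 4 ways of scaling the libraries. Filled markers have an adjusted p under 0.05 and open markers do not. Library totals and TPM move each gene to the left, which ends the calls of Pdia3, Pdia4, Pdia6, Manf and Sdf2l1 and, with library totals, Asns.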

How the data were processed

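RNA captured by its poly(A) tail was sequenced. Per the labels and the submitters' processing notes, SOAPnuke 1.5.6 filtered the reads, a program spelled HISTA2 2.1.0 aligned them to mm10 (GRCm38), and limma 3.66.0 compared groups. Quantifier and strand setting: not given in the sources used here. The deposited table lists, per the file headers, estimated counts for each RefSeq transcript, and beside them the authors' TPM and FPKM, scaled by length; 16 further value columns were not used. Counts were added up by gene and rounded. Library totals were 19048248 to 20028111, and the biological coefficient of variation was 12.4%.

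Genes that passed filterByExpr (minimum count 10, minimum total 15), 12839 in all, were tested with edgeR 4.0.16's quasi-likelihood test (TMM, robust, group only; R 4.3.3), Benjamini-Hochberg adjusted over all of them. The edgeR fit was also run on simulated counts with rises and falls in near-equal number. That run could not test the choice of library scaling. Members and lists were chosen with earlier results of these data known; all 32 members are described, with up to 3 passing genes of lowest p per other list. Alternatives used DESeq2 1.42.0, limma 3.58.1 (voom; log2 TPM or FPKM, pseudocount 1 or 0.1, mean at least 1), library totals, no filter or 50 counts, other transcript sets and fewer libraries. Same-numbered D and M libraries deviated together (r = 0.115, 0.131, 0.118 and 0.182, each above 0.1), so a replicate block was fitted too, though the labels do not explain the numbers. SciPy 1.17.1 gave the exact test of the Xbp1 share. RefSeq promoter directions matched GENCODE transcripts for 25 of 29 genes. Intervals are at 95%.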

Additional observations from a re-analysis of the deposited data

Results flagged for a closer look

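In 68 groups of 4 values checked (the members, Xbp1 and its spliced share in D and in M), 3 had a library whose gap to the nearest other was over Dixon's 95% critical share of the range; chance flags about 1 group in 20. Edem2 was at 68.5 CPM in D replicate 3, against 60.4 to 61.3 CPM in the other D libraries. Atf4 was at 352 CPM in D replicate 1, against 275 to 285 CPM in the other D libraries. The spliced share of Xbp1 was 24.2% in D replicate 4, against 11.2% to 12.9% in the other D libraries.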

How the results depend on the processing

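Of the 12 calls, 3 (Dnajc3, Herpud1 and Syvn1) held under all 21 alternatives, and 4 members that had not passed (Sel1l, Edem2, Atf6 and Trib3) passed under some. The 12 calls became 7 on FPKM, 6 with curated transcripts alone and 7 to 14 without 1 library. The 8 higher members became 2 with library totals or FPKM, 3 on TPM, 5 with the most abundant transcript, 4 with curated transcripts and 5 to 10 without 1 library; the 4 lower became 2 with DESeq2 size factors, no filter or curated transcripts and 2 to 4 without 1 library. Higher chaperones numbered 1 with library totals, TPM or FPKM, 3 with the most abundant or curated transcripts and 3 to 6 without 1 library, and lower ones 0 with DESeq2 size factors, no filter and both transcript sets and 0 to 1 without 1 library. Higher degradation genes numbered 2 with DESeq2's test, 0 with curated transcripts and 1 to 3 without 1 library. Higher PERK-ATF4 genes numbered 0 with library totals or FPKM, and lower ones 0 with DESeq2 size factors, no filter or curated transcripts, 2 with library totals and 0 to 1 without 1 library. With the replicate block 11 members passed, and Pdia6 was the call it changed (log2 fold change 0.27, adjusted p = 0.0502). Direction turned for 8 members that had not passed. With library totals, TPM (pseudocount 1, 0.1) and FPKM, log2 fold changes were -0.068, -0.044, -0.044 and -0.059 for Hsp90b1, -0.037, -0.018, -0.018 and -0.033 for Calr, -0.047, -0.029, -0.029 and -0.043 for Dnajb9, -0.08, -0.065, -0.066 and -0.08 for Dnajb11, and -0.027, -0.018, -0.019 and -0.032 for Eif2ak3. Canx was at -0.00096 with library totals and -0.0042 on FPKM, Edem2 at -0.002 with the most abundant transcript and Derl1 at 0.0084 with DESeq2 size factors or its test. Without 1 library, Hsp90b1 ran from -0.048 to 0.087, Calr from -0.021 to 0.13, Eif2ak3 from -0.017 to 0.20 and Derl1 from -0.024 to 0.029. The shift of all genes moves these values under library totals; other causes were not tested. The Xbp1 share difference ran from 0.0469 to 6.69 points without 1 library, where the exact permutation test cannot pass.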
